A study of Arabidopsis thaliana with 12 samples.

Results

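The *MYC* and *JAM* genes encode basic helix-loop-helix transcription factors that sit directly below the JAZ repressors in jasmonate (JA) signalling. The set described here has 7 genes, chosen by locus number from the 33602 genes of the deposited tables: *MYC2* (AT1G32640), *MYC3* (AT5G46760), *MYC4* (AT4G17880), *MYC5* (AT5G46830), *JAM1* (AT2G46510), *JAM2* (AT1G01260) and *JAM3* (AT4G16430). RNA came from whole *Arabidopsis thaliana* seedlings, roots included, of 4 genotypes with 3 libraries each, 12 libraries in all. WT was Col-0. The *jazQ* line combines the T-DNA alleles *jaz1-2*, *jaz3-4*, *jaz4-1*, *jaz9-4* and *jaz10-1*, which interrupt 5 of the 13 *JAZ* repressor genes. The *phyB* line carries *phyB-9*, a null allele of the red-light receptor gene *PHYB*, and *jazQ phyB* was made by crossing that allele into *jazQ*. Each mutant genotype is 1 line. Every library pooled about 200 seedlings that were 8 d old and had grown without added JA, in continuous light on a medium with 0.8% sucrose, and plates were shared between WT and mutants. In RNA from whole seedlings, fewer cells that express a gene and less transcript per cell cannot be told apart.

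In the resting plant, JAZ proteins bind the MYC factors and hold their target promoters silent with the help of NINJA and TOPLESS. JA-isoleucine brings JAZ proteins to the receptor COI1, the JAZ proteins are degraded, and the MYC factors then switch on defence and JA-response genes, several *JAZ* genes among them. MYC2 is the best known activator of this group, MYC3 and MYC4 act together with it, and MYC5 is known mainly for its role in stamen development. JAM1, JAM2 and JAM3 bind similar sequences but repress, so that they compete with the MYC activators at shared targets. Light enters the same pathway through PHYB, whose loss makes seedlings behave as if they were shaded and weakens JA responses. The comparisons asked how far the transcript level of each factor followed the loss of the 5 JAZ repressors, the loss of PHYB, or both.

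Counts per library ran from 12750074 to 26347184. Levels of 1 gene across libraries are given below as CPM, the count scaled to the library's effective size, means stand beside their standard deviation (SD) over 3 libraries, and a gene was called where its adjusted p in edgeR's quasi-likelihood test was below 0.01. The mutated genes were read first as a check of the labels. *JAZ1* was at 4.78 to 7.17 CPM in the 6 libraries with the *jazQ* insertions and at 24.5 to 60.8 CPM in the others, and *JAZ4* was at 2.03 to 3.26 against 5.05 to 6.47 CPM. *JAZ3* (513 to 695 against 10.1 to 16.6 CPM) and *JAZ10* (200 to 274 against 3.10 to 4.06 CPM) were far higher in the libraries with the insertions, and *JAZ9* overlapped between *jazQ* and WT. A count over a whole gene does not show whether a transcript is intact. *PHYB* was at 50.7 to 57.4 CPM in the 6 *phyB-9* libraries and at 74.5 to 88.0 CPM in the other 6. Over 8 shoot marker genes the summed level was 25672 to 28827 CPM in WT, 27319 to 29584 in *jazQ*, 16412 to 17299 in *phyB* and 19423 to 23686 in *jazQ phyB*. Over 11 root marker genes, of which 10 passed the filter on low counts, it was 187 to 199, 170 to 188, 224 to 237 and 212 to 244 CPM in the same order.

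The 7 genes lie on 4 chromosomes. Positions are those of the RefSeq models on the TAIR10.1 assembly. *MYC2* is at chr1:11798119-11801407 on the minus strand, *MYC3* at chr5:18974022-18976590 on the plus strand and *MYC4* at chr4:9933326-9935685 on the minus strand. *MYC5* is at chr5:19002564-19004384 on the plus strand, 25973 bases from *MYC3*. *JAM1* is at chr2:19090953-19093373 on the minus strand, *JAM2* at chr1:108946-111699 on the plus strand and *JAM3* at chr4:9267260-9269178 on the plus strand. Each of the 7 has its whole coding region in 1 exon, and the coding length ran from 1404 bases in *JAM3* to 1872 bases in *MYC2*. Although the genes belong to 1 family, 0 of the 50-base windows of their longest transcript models occurred a second time in the genome, so that exact reads of that length fall to 1 gene. Overlapping neighbours are a separate matter. AT1G32630 runs on the opposite strand over 98.5% of the exon bases of *MYC2*, and counting at RSEM's default parameters takes no account of strand. AT1G32630 was itself at 5.49 to 7.66 CPM in the 12 libraries, with adjusted p-values of 0.811 to 0.964 in the 6 comparisons. Reads from shared bases could be counted to either gene, so these values are no independent check of the *MYC2* counts. Whether the models used for counting overlap to the same extent was not checked. AT4G16440 overlaps 4.64% of the exon bases of *JAM3* on the opposite strand and was at 10.6 to 14.1 CPM.

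MYC factors bind the G-box, whose letters CACGTG read the same on either strand. They also bind the variant CACATG. Both were searched for on both strands in the 1000 bases before the annotated start of each gene. Only *JAM1* and *JAM2* held a G-box among the 7, against 14.8% of 27443 protein-coding genes with a window of that length. The sequences below show these matches, together with the single variant before *MYC2*, with 12 bases on each side and the motif in capitals, on the strand of the gene.
*JAM1*, 309 bases before the start, chr2:19093665-19093694: taggtacatacaCACGTGtgtacacaaaac
*JAM2*, 677 bases before the start, chr1:108257-108286: ctctcctaaatcCACGTGaacttcacgtgc
*JAM2*, 666 bases before the start, chr1:108268-108297: ccacgtgaacttCACGTGcttttcacgccc
*MYC2*, 370 bases before the start, chr1:11801760-11801789: taacgttgttagCATGTGtttatcgtgaaa
The G-box pair of *JAM2* lies so close that each window contains the other match. *JAM1* had 4 copies of the variant beside its G-box, *MYC2* and *MYC5* had 1 each, and 37.7% of all promoters had at least 1. No match of either kind lay in the windows of *MYC3*, *MYC4* and *JAM3*. These matches are letters in a window and were not measured as binding sites here.

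The order of the 6 detected factors was led by *MYC3* in all genotypes, and the places below it changed. Between genes, levels are compared as TPM, which RSEM scales by transcript length as well as by library. *MYC3* had the highest TPM in every genotype, with means of 51.8 ± 5.46 TPM (WT), 54.8 ± 3.77 TPM (*jazQ*), 50.9 ± 2.77 TPM (*phyB*) and 53.5 ± 7.12 TPM (*jazQ phyB*, SD, n = 3), and its libraries did not overlap with those of the next gene. In WT, *JAM3* (26.3 ± 1.69 TPM) and *MYC2* (26.0 ± 2.73 TPM) followed and overlapped. *MYC4* came next at 20.5 ± 1.61 TPM, above *JAM1* (16.4 ± 2.73 TPM) and *JAM2* (13.9 ± 2.35 TPM), which again overlapped. In *jazQ*, *MYC2* stood alone in second place at 34.3 ± 4.46 TPM, and *JAM1* (21.4 ± 2.02 TPM) lay above *MYC4* (18.8 ± 0.61 TPM). In *phyB* the order below *MYC3* was *JAM3*, *MYC2*, *MYC4*, *JAM2* and *JAM1*, with no overlap between neighbours, and *JAM1* was last of the 6 at 10.7 ± 0.093 TPM. In *jazQ phyB*, *MYC2* (32.8 ± 4.75 TPM) and *JAM3* (30.9 ± 1.07 TPM) overlapped, as did *JAM2* (17.9 ± 1.44 TPM) and *JAM1* (16.6 ± 2.62 TPM), with *MYC4* between these pairs. *JAM1* thus stood above both *MYC4* and *JAM2* in *jazQ* and below both in *phyB*.

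**Figure D1:**
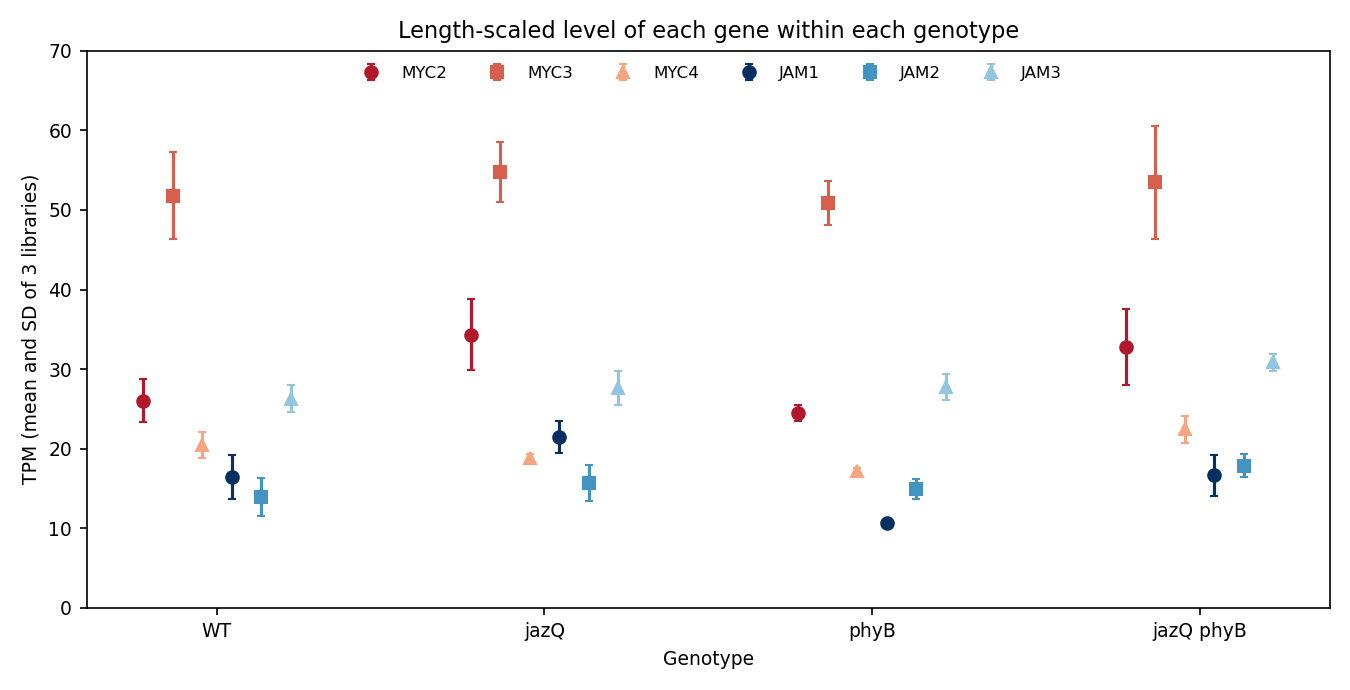
Level of the 6 *MYC* and *JAM* genes that passed the filter, as TPM on the vertical axis, in the 4 genotypes on the horizontal axis. Points are means of 3 libraries and bars are SD. *MYC3* lies near 50 TPM in every genotype, while *JAM1* falls to 10.7 TPM in *phyB* and stands at 21.4 TPM in *jazQ*.

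*MYC5* was close to absent from these seedlings. Its counts were 0, 3 and 1 in the WT libraries and 1, 0 and 1 in those of *jazQ*. Without PHYB they were 0, 1 and 0 (*phyB*) and 1, 4 and 1 (*jazQ phyB*). Only 1 library exceeded 3 counts, a number that corresponded to 0.116 to 0.230 CPM depending on the library. No genotype difference was detectable at this depth, and *MYC5* entered no test. The other 6 genes passed the filter on low counts in all comparisons.

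The activators summed to 98.4 ± 6.92 TPM in WT and 92.6 ± 3.39 TPM in *phyB*, and to 108 ± 7.92 TPM in *jazQ* and 109 ± 10.4 TPM in *jazQ phyB* (SD, n = 3). The *JAM* genes summed to 56.6 ± 4.50, 53.5 ± 1.92, 64.7 ± 4.94 and 65.4 ± 3.09 TPM in the same order of genotypes. TPM is not scaled between libraries, so these sums do not rank the genotypes. Against WT, the median gene was at 0.14 in *phyB*, 0.10 in *jazQ phyB* and -0.004 in *jazQ* on log2(TPM + 1). The ratio of the *MYC* sum to the *JAM* sum in a library lay between 1.57 and 1.87 over all 12 libraries, and its range overlapped between all genotypes. The balance within single pairs was less even. The TPM of *MYC2* relative to that of *JAM1* was 1.29 to 1.91 in WT, 1.54 to 1.66 in *jazQ*, 2.19 to 2.33 in *phyB* and 1.91 to 2.05 in *jazQ phyB*. The *phyB* libraries thus had the highest ratio, with no overlap with the other 9 libraries, and no test was run on this ratio. *MYC3* alone made up 46.5 to 55.5% of the *MYC* sum, and *JAM3* 42.6 to 53.8% of the *JAM* sum.

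*JAM1* varied most between genotypes of the 6 genes. Its level was 24.1, 32.0 and 34.6 CPM in the WT libraries and 37.1, 43.0 and 37.3 CPM in those of *jazQ*. Without PHYB it was 17.7, 17.8 and 17.9 CPM (*phyB*) and 33.3, 25.1 and 26.2 CPM (*jazQ phyB*). All *jazQ* libraries were above all WT libraries, all *phyB* libraries were below every other library, and the *jazQ phyB* libraries lay among those of WT. The highest genotype mean (39.1 CPM in *jazQ*) was 2.20 times the lowest (17.8 CPM in *phyB*). *MYC2* followed with a ratio of 1.54, then *MYC4* with 1.33, *JAM2* with 1.21, *MYC3* with 1.19 and *JAM3* with 1.13.

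*MYC2* was at 42.4, 48.6 and 41.0 CPM in the WT libraries and at 52.7, 65.7 and 54.8 CPM in those of *jazQ*. In *phyB* it was at 35.7, 38.3 and 38.1 CPM, and in *jazQ phyB* at 59.9, 47.5 and 46.2 CPM. The *jazQ* libraries lay above those of WT and the *phyB* libraries below them, and *jazQ phyB* overlapped with both WT and *jazQ*. *MYC4* was at 32.2, 34.6 and 39.0 CPM in WT and at 32.7, 33.1 and 30.9 CPM in *jazQ*. It was at 27.6, 26.2 and 26.8 CPM in the *phyB* libraries and at 38.1, 33.2 and 35.8 CPM where the mutations were combined. Its low values were thus confined to the 3 *phyB* libraries, which lay below the other 9. *MYC3* ran from 59.3 to 80.1 CPM, *JAM2* from 25.0 to 34.7 CPM and *JAM3* from 33.9 to 41.4 CPM over the 12 libraries. For *MYC3* the libraries overlapped in every pair of genotypes compared. *JAM2* and *JAM3* did not overlap between *jazQ phyB* and *phyB*, where both were higher in *jazQ phyB*.

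**Figure D2:**
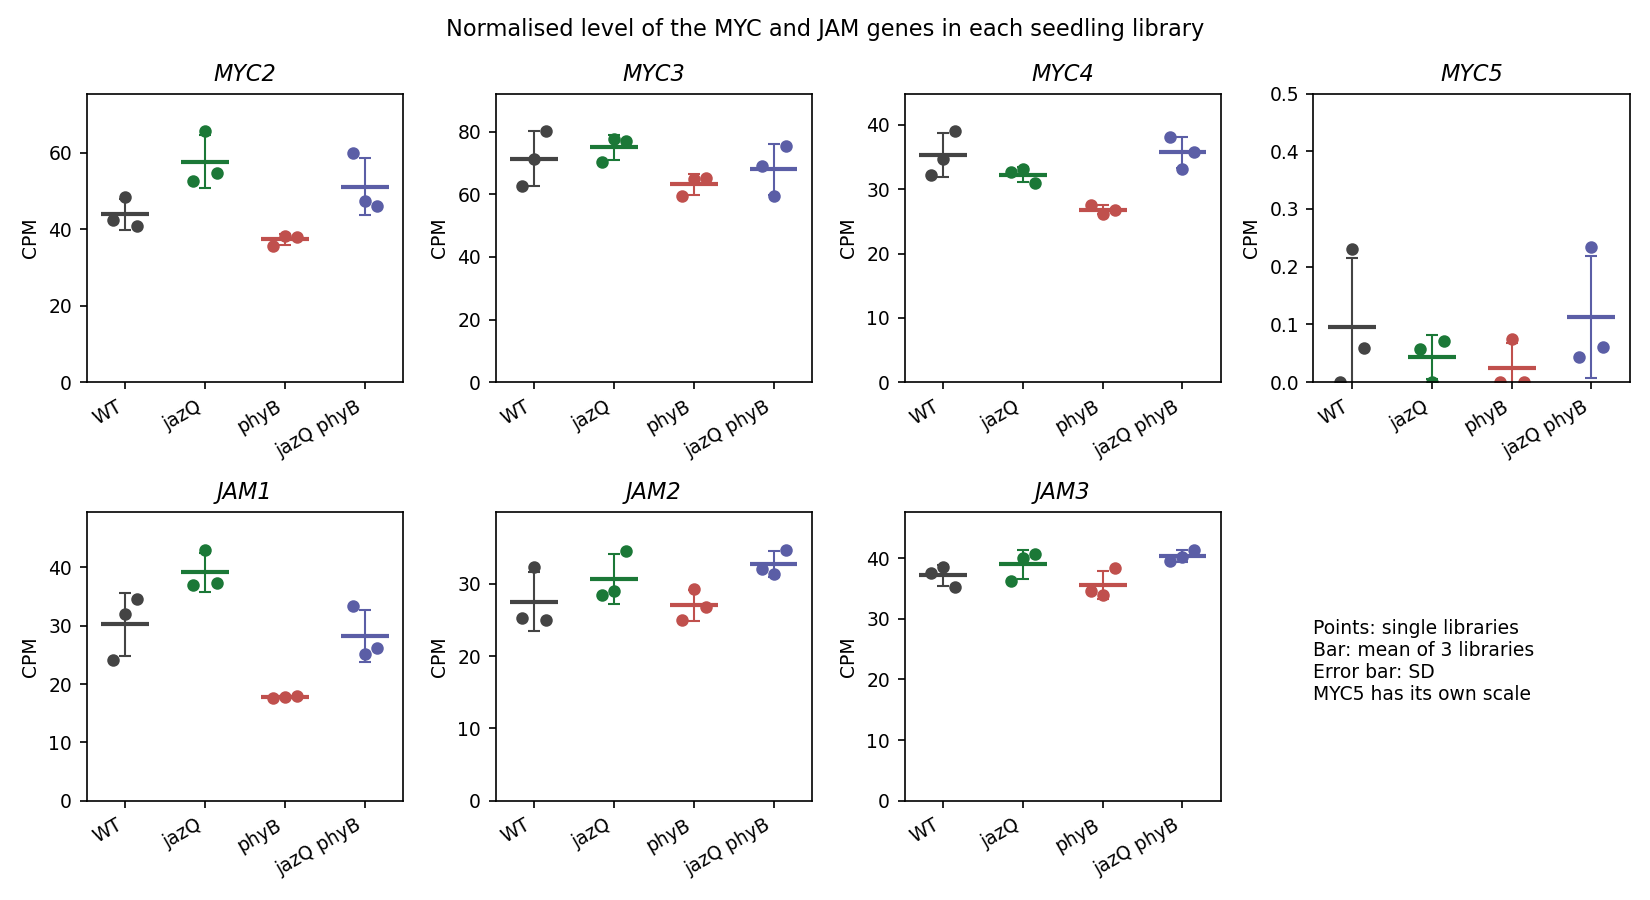
Level of each of the 7 genes in CPM, on axes that start at 0, in the 4 genotypes. Points are single libraries, the horizontal bar is the mean of 3 libraries and the error bar is SD. The 3 *phyB* libraries lie lowest for *JAM1* (17.7 to 17.9 CPM) and *MYC4* (26.2 to 27.6 CPM), and *MYC5* is drawn on its own scale, where the highest library is at 0.235 CPM.

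Loss of the 5 JAZ repressors alone called 0 of the 6 genes against WT. Over all 20957 genes tested, 0.997% were called higher and 0.544% lower in this comparison. *MYC2* was 1.32 times its WT level (log2 fold change 0.40, SE 0.11, 95% interval 0.17 to 0.62, adjusted p = 0.0513 in edgeR), and *JAM1* was 1.30 times its WT level (log2 fold change 0.38, SE 0.13, 95% interval 0.11 to 0.65, adjusted p = 0.116 in edgeR). Both genes had unadjusted p-values below 0.05, as did 3601 of all genes. Their libraries did not overlap with those of WT, which held for 20.4% of all genes in either direction. DESeq2 also called 0 of the 6, with an adjusted p of 0.0215 for *MYC2*. The other 4 had log2 fold changes between -0.13 (*MYC4*) and 0.16 (*JAM2*), and their 95% intervals included 0 and reached 0.39 at most. *MYC2* and *JAM1* were thus higher in every *jazQ* library than in any WT library. At this depth and number of libraries, neither passed the threshold over all genes.

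Loss of PHYB lowered *JAM1*, a repressor, and *MYC4*, an activator. *JAM1* fell by 0.75 on the log2 scale (SE 0.13, 95% interval -1.04 to -0.47), or 0.593 times its WT level, with an adjusted p of 0.0012 in edgeR. *MYC4* fell by 0.39 (SE 0.08, 95% interval -0.56 to -0.22), or 0.762 times its WT level, with an adjusted p of 0.00272. Of the 6 genes 2 were thus called lower and 0 higher, where 7.06% of all genes were called lower and 4.70% higher. *MYC2* had a log2 fold change of -0.23 (95% interval -0.46 to 0.0013, adjusted p = 0.146), and its libraries lay below those of WT, so that 3 of the 6 genes did not overlap, against 39.5% of all genes. *MYC3* was at -0.17 and *JAM3* at -0.06 on the same scale. *JAM2* was at -0.02, a sign that turned with upper-quartile factors and, as that of *JAM3* did, with TPM. The call of *JAM1* held when any of the 12 libraries was left out. The call of *MYC4* was lost without WT replicate 3, *phyB* replicate 2 or *phyB* replicate 3 (adjusted p up to 0.0154). It was also lost on both TPM scales, where its log2 fold change was -0.23 and -0.24 (adjusted p = 0.0279 and 0.0272 in limma). The summed shoot markers were lower in *phyB* than in WT by the values above, and 5 of the 8 were called lower. Much of that sum came from the photosynthesis genes *RBCS1A*, *CAB1* and *RCA* (7617, 7821 and 6559 CPM in WT). A log2 fold change above 0 was found for 2 of the 8, neither called. These were *SPCH* (8.37 ± 0.66 against 7.47 ± 0.62 CPM in WT) and *TMM* (14.1 ± 0.61 against 13.6 ± 0.36 CPM). Of the 10 root markers tested, 2 were called higher (*CASP1* and *CASP2*, of the endodermis) and 0 lower, and 8 had a log2 fold change above 0. *SCR*, which also acts in the endodermis, was at -0.21 (adjusted p = 0.0747). The part of organ shares in the levels of *JAM1* and *MYC4* was not tested.

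With the repressors and PHYB both lost, 0 of the 6 genes were called against WT, where 3.75% of all genes were called higher and 6.02% lower. *JAM1* was at 28.2 ± 4.42 CPM beside 30.2 ± 5.42 CPM in WT, a log2 fold change of -0.08 with a 95% interval from -0.35 to 0.19. *MYC4* was at 35.7 ± 2.45 CPM beside 35.3 ± 3.46 CPM in WT, with an interval from -0.14 to 0.18. *MYC2* (0.23, interval 0.0017 to 0.45, adjusted p = 0.16) and *JAM2* (0.26, interval 0.04 to 0.48, adjusted p = 0.101) were the 2 genes with an unadjusted p below 0.05, and DESeq2 called 0 of the 6 here as well. Over all 20957 genes, 6405 had an unadjusted p below 0.05. *JAM3* was the only 1 of the 6 whose *jazQ phyB* libraries lay apart from those of WT (39.5, 40.2 and 41.4 against 37.6, 38.6 and 35.3 CPM), where 32.9% of all genes did so.

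Where PHYB was missing, the *jazQ* mutations raised *JAM1*, *MYC2* and *MYC4*. In *jazQ phyB* against *phyB*, 3 of the 6 genes were called higher and 0 lower, against 6.01% and 5.76% of all genes. *JAM1* was higher by 0.67 on the log2 scale (SE 0.13, 95% interval 0.39 to 0.96, adjusted p = 0.0026 in edgeR), which is 1.59 times its level in *phyB*. *MYC2* was higher by 0.46 (SE 0.11, 95% interval 0.23 to 0.69, adjusted p = 0.00733), or 1.37 times. *MYC4* was higher by 0.41 (SE 0.08, 95% interval 0.25 to 0.58, adjusted p = 0.00182), or 1.33 times. *JAM2* (0.28, adjusted p = 0.0743) and *JAM3* (0.18, adjusted p = 0.0768) did not pass the threshold, although 5 of the 6 genes had libraries that did not overlap, against 40.3% of all genes. *MYC3* was at 0.10 with an interval from -0.10 to 0.31. The median log2 fold change of the 6 was 0.34 beside 0.0001 over all genes. The calls rest on single libraries to different degrees. That of *MYC2* was lost without any 1 of *phyB* replicates 1, 2 and 3 or *jazQ phyB* replicates 1 and 2 (adjusted p up to 0.0413), and with limma on both TPM scales (0.0229 and 0.0230). That of *JAM1* was lost without any 1 of the 3 *phyB* libraries or *jazQ phyB* replicate 1 (up to 0.016). That of *MYC4* was lost without *phyB* replicate 2 or *jazQ phyB* replicate 1 (up to 0.0125), and without *phyB* replicate 2 or *jazQ phyB* replicate 1 none of the 3 was called. Of the 8 shoot markers, 4 were called higher in *jazQ phyB* than in *phyB* and 0 lower, 0 of the 10 root markers were called, and their part in these differences was not tested.

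Within the *jazQ* background, loss of PHYB called 0 of the 6 genes, where 2.63% of all genes were called higher and 4.15% lower. *JAM1* came closest. It was at 28.2 ± 4.42 CPM in *jazQ phyB* and 39.1 ± 3.37 CPM in *jazQ*, a log2 fold change of -0.46 (SE 0.13, 95% interval -0.73 to -0.20, adjusted p = 0.0238 in edgeR). It was also the only gene of the 6 with an unadjusted p below 0.05, beside 5968 of all 20957 genes. DESeq2 called *JAM1* (adjusted p = 0.00951), and so did edgeR without WT replicate 1 (0.0062). In the same comparison 4 of the 10 root markers were called higher and 2 of the 8 shoot markers lower, and their part in the level of *JAM1* was not tested. *MYC4* moved the other way, by 0.15 (interval -0.02 to 0.31, adjusted p = 0.222). Its *jazQ phyB* libraries were all above those of *jazQ*, and with *JAM1* it made 2 of the 6 genes without overlap, against 31.5% of all genes.

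Whether the 2 mutations combined additively on the log2 scale was read from the interaction, which is the effect of the *jazQ* mutations in *phyB* minus their effect in WT. *MYC4* was the only 1 of the 6 called, with an interaction of 0.54 (SE 0.11, 95% interval 0.31 to 0.78, adjusted p = 0.00736 in edgeR), and 1.90% of all genes were called in that direction and 1.70% in the other. The single mutants were at -0.13 (*jazQ*) and -0.39 (*phyB*) relative to WT, which sum to -0.52, and the double mutant was at 0.02. This call was the least firm among those of the 6 genes, the only ones followed through the fits without 1 library. The adjusted p of *MYC4* lay above 0.01 in 10 of these 12 fits (up to 0.0256, without any library but WT replicate 1 or *jazQ phyB* replicate 2). It also lay above 0.01 with limma on both TPM scales (0.0152 and 0.0149). For *JAM1* the single mutants summed to -0.37 and the double mutant was at -0.08. Its interaction of 0.29 had a 95% interval from -0.10 to 0.68 (adjusted p = 0.37), which includes 0 as well as departures from additivity larger than that of *MYC4*. *MYC2* was close to the sum, with 0.16 from the single mutants and 0.23 in the double mutant (interaction 0.06, interval -0.26 to 0.39). The interactions of *MYC3*, *JAM2* and *JAM3* were 0.03, 0.11 and 0.11. Of the shoot markers, *RCA*, *CA1* and *FAMA* were called in the interaction in the same direction as *MYC4*, and their part in it was not tested.

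**Figure D3:**
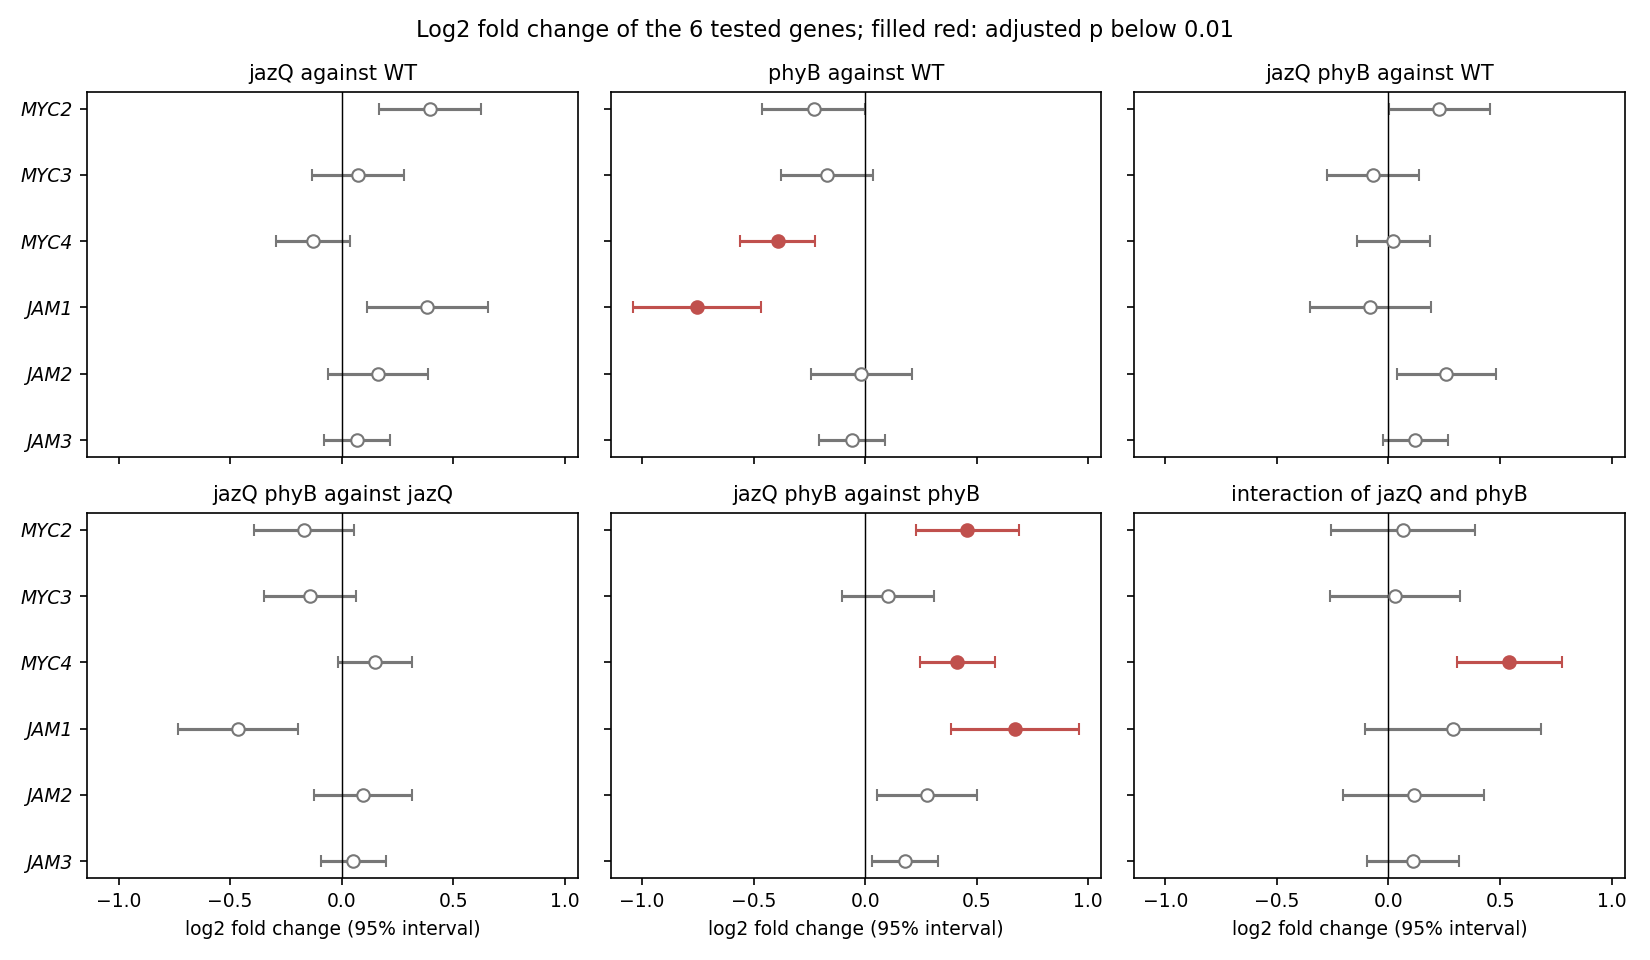
Log2 fold change of the 6 tested genes on the horizontal axis in each of the 6 comparisons, with 95% intervals. Filled red points were called (adjusted p below 0.01) and open grey points were not. *JAM1* and *MYC4* lie left of 0 in *phyB* against WT (-0.75 and -0.39), and *MYC2*, *MYC4* and *JAM1* lie right of 0 in *jazQ phyB* against *phyB* (0.46, 0.41 and 0.67).

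The JAZ proteins are the repressors that bind the MYC factors, and several *JAZ* genes are also MYC targets. Of the 13 *JAZ* genes 8 carry no insertion here, and 7 of these were tested. *JAZ5* was called higher in *jazQ* (4.15 ± 0.66 against 0.994 ± 0.07 CPM in WT, log2 fold change 2.07, adjusted p = 0.000292) and in *jazQ phyB* (1.28, adjusted p = 0.0035), and it was the only 1 of the 7 called against WT. *JAZ12* (0.28, adjusted p = 0.0272 in edgeR), *JAZ2* (0.48, adjusted p = 0.0471) and *JAZ7* (1.04, adjusted p = 0.0814) were also higher in *jazQ* than in WT without being called. *JAZ8* was at 1.67 (adjusted p = 0.269) on 0 to 13 counts per library, and *JAZ11* was at 0.09. *JAZ6* went the other way (-0.22, adjusted p = 0.339). Of the 7 genes, 5 had an unadjusted p below 0.05 in *jazQ* and 4 in *jazQ phyB*, beside 3601 and 6405 of all 20957 genes. *JAZ2* (0.53, adjusted p = 0.00871) and *JAZ7* (1.52, adjusted p = 0.00519) were called higher in *jazQ phyB* than in *phyB*, as *MYC2*, *MYC4* and *JAM1* were, and of this pair DESeq2 called *JAZ2* only. In the interaction edgeR and DESeq2 called 0 of the 7, and 3 had an unadjusted p below 0.05, beside 5075 of all 20957 genes. In *phyB* against WT edgeR and DESeq2 called 0 of the 7, and 2 had an unadjusted p below 0.05, beside 7307 of all 20957 genes. *JAZ1* (-0.73, adjusted p = 0.00278) and *JAZ9* (-0.66, adjusted p = 0.00173), which are intact in *phyB*, were lower.

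Among 11 genes whose products act on the MYC factors or next to them, the JA receptor gene *COI1*, the corepressor gene *TPL*, the Mediator subunit gene *MED25* and *PUB10*, whose product marks MYC2 for degradation, were called in none of the 6 comparisons. Their unadjusted p-values were below 0.05 in 0 to 2 of the 4 genes per comparison, beside 3601 to 7307 of all 20957 genes. DESeq2 called 0 of the 4. *NINJA*, which links JAZ proteins to TOPLESS, was higher in *phyB* (56.6 ± 1.42 against 48.4 ± 1.82 CPM in WT, log2 fold change 0.22, adjusted p = 0.00913). Its interaction was -0.38 (SE 0.08, adjusted p = 0.00647), opposite in sign to that of *MYC4*. *JAV1*, a repressor of JA defence, was lower in *jazQ phyB* than in WT (-0.62, adjusted p = 0.00633). It was also lower than in WT, without being called, in *jazQ* (-0.62, adjusted p = 0.0225 in edgeR) and in *phyB* (-0.47, adjusted p = 0.0262). The DELLA genes *GAI* (0.33, adjusted p = 0.00924) and *RGL1* (0.95, adjusted p = 0.00191), whose products bind JAZ proteins, were higher in *jazQ phyB* than in WT. Of the 11 genes, 2 were thus called higher and 1 lower there, against 3.75% and 6.02% of all genes. *RGL3*, another DELLA gene, was higher in *jazQ phyB* than in *phyB* (1.09, adjusted p = 0.00109). The DELLA genes *RGA* and *RGL2* were called in none of the 6 comparisons.

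MYC proteins form complexes with MYB factors, and 6 of 9 genes of such factors were tested. *MYB28*, a regulator of aliphatic glucosinolates, was higher in *jazQ phyB* than in *jazQ* (0.40, adjusted p = 0.00988 in edgeR). DESeq2 called *MYB28* there as well, and also in *jazQ phyB* against *phyB* and in the interaction, where edgeR did not. *MYB29*, which has the same role, was higher in *jazQ phyB* than in *phyB* (1.59, adjusted p = 0.00964). The other 4 of the 6 tested were called in none of the 6 comparisons, by edgeR or by DESeq2. *MYB21* and *MYB24*, stamen regulators that work with MYC5, had 0 counts in all 12 libraries, which allows at most the 0.116 to 0.230 CPM given above for 3 counts. Of 5 further basic helix-loop-helix genes that JAZ proteins bind or that resemble the MYC factors, *GL3*, a trichome regulator, passed the test in *jazQ phyB* against WT (0.91 higher, adjusted p = 0.00554) and was the only call in the 6 comparisons.

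The study lists 13 PIF4 targets that are also reported as MYC targets, and PIF4 is a factor that PHYB restrains. Of these genes, 3 carry an insertion in *jazQ* and 9 of the other 10 were tested. *JAZ5* rose in *jazQ* as described, and the other 8 did not pass the threshold there in edgeR (DESeq2 also called *CYP79B3*). Of the 9 genes, 6 had an unadjusted p below 0.05 in *jazQ*, beside 3601 of all 20957 genes. *JAZ5*, *TPS11* and *CYP79B3* were higher among these. *EBF1*, *SPA1* and *ANAC055* (-1.24, adjusted p = 0.0319 in edgeR) were lower. In *phyB*, *ANAC019* (-1.98, adjusted p = 0.00883) and *SAG29* (-1.74, adjusted p = 0.00418) were lower, as *MYC4* and *JAM1* were, while *CYP79B3*, an enzyme of indole glucosinolate synthesis, was higher (0.62, adjusted p = 0.00277). In *jazQ phyB* against WT, *JAZ5* and *CYP79B3* (0.71, adjusted p = 0.00124) were higher and *SAG29* (-1.48, adjusted p = 0.00883) lower. *ANAC055*, a NAC factor gene, was lower in *jazQ phyB* than in *phyB* (-1.30, adjusted p = 0.00521), where *MYC2* was higher, and DESeq2 did not call it. In the comparison of *jazQ phyB* with *jazQ* and in the interaction, edgeR and DESeq2 called 0 of these 9 genes. Over all 20957 genes edgeR called 1422 and 756 there. Of the 9 genes, 4 and 6 had an unadjusted p below 0.05, as did 5968 and 5075 of all genes.

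**Figure D4:**
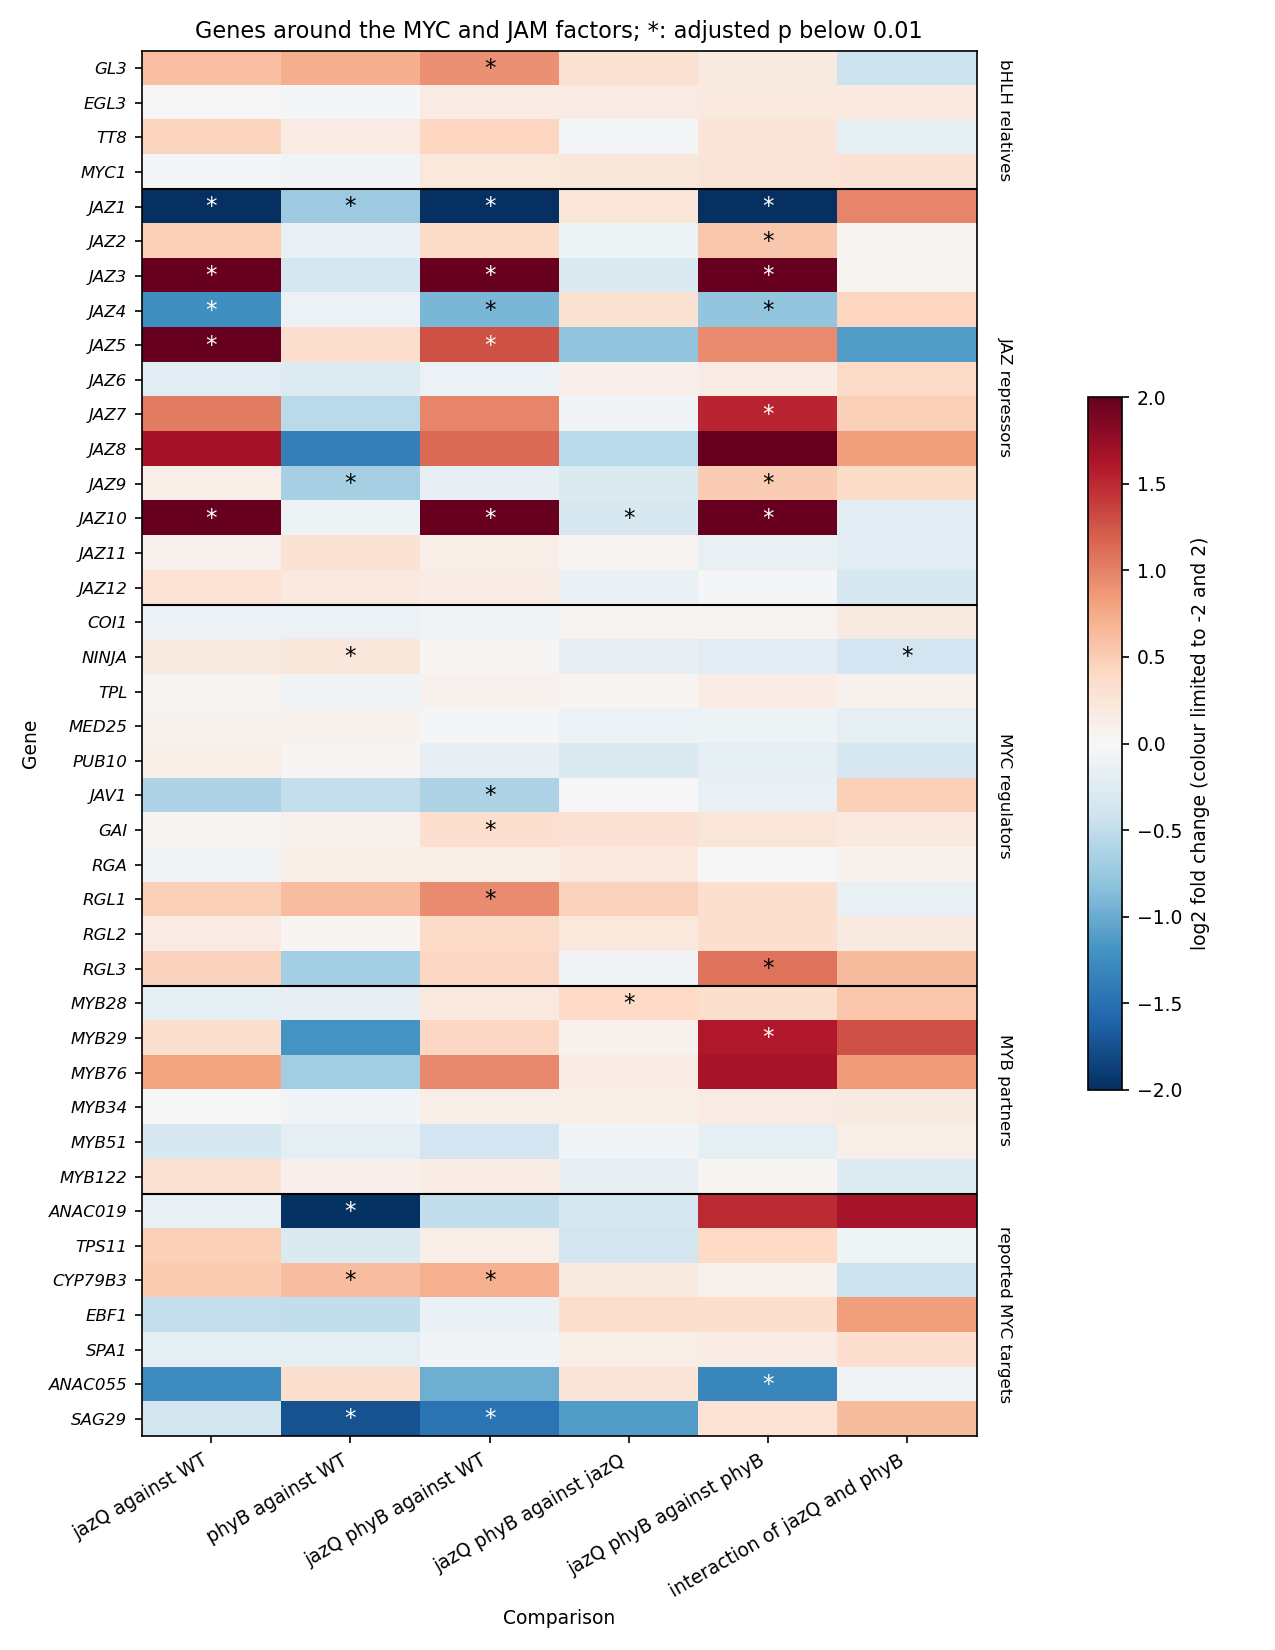
Log2 fold changes of 40 tested genes around the *MYC* and *JAM* factors (rows, grouped by role) in the 6 comparisons (columns), with colour limited to -2 and 2 and an asterisk where the adjusted p was below 0.01. *JAZ1*, *JAZ3*, *JAZ4*, *JAZ9* and *JAZ10* carry insertions in *jazQ*, and the rows of *COI1*, *TPL*, *MED25* and *PUB10* hold no asterisk.

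The genes whose levels ran most alike with each factor over the 12 libraries were listed by Pearson's r of log2 CPM. These points share their genotypes and the scaling of each library, so r is a description. *MYC2* was closest to *GGP1* (r = 0.943), an enzyme of glucosinolate synthesis, to *AOS* (0.933), an enzyme of JA synthesis, and to *CBL* (0.932), cystathionine beta-lyase of methionine synthesis. *JAM1* was closest to *LHCB2.1* (0.970), a photosystem II antenna gene, to *RPS6* (0.968), an immune receptor gene, and to the thionin gene AT1G66100 (0.966). *MYC4* was closest to the catalase gene *CAT2* (0.948), to the lectin kinase gene AT4G02420 (0.945) and to AT2G42975 (0.932). *MYC3* ran with *GTE4* (0.923), AT2G30480 (0.917) and AT5G42050 (0.912). *JAM2* ran with *ROPGEF3* (0.896), AT3G24240 (0.872) and AT5G61990 (0.872), and *JAM3* with AT1G71940 (0.940), AT2G45100 (0.921) and AT3G07900 (0.908). Among the factors themselves, *MYC2* and *JAM1* had the highest r (0.856) of the 15 pairs, followed by *MYC3* with *JAM1* (0.744), and *MYC4* with *JAM2* had the lowest (0.265).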

How the data were processed

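RNA of 12 libraries (4 genotypes, 3 each) was analysed. The authors assigned single-end reads of 50 bases to TAIR10 gene models with RSEM 1.2.11 at default parameters. They deposited expected counts per gene, which were whole numbers in the tables (100% of values) and not normalised, and TPM values, scaled for transcript length and library but not between libraries. Libraries were grouped by their labels, which call them biological replicates. Genotypes shared plates, but whether a replicate number marks a plate is not given in the sources used here. Counts over 20957 genes that passed filterByExpr of edgeR 4.0.16 (minimum count 10, R 4.3.3) were scaled by TMM and fitted with a quasi-likelihood model of the 4 genotypes. Adjusted p-values are Benjamini-Hochberg over all genes tested in a comparison, and SE and 95% intervals come from the same fit. Interval width reflects 3 libraries per genotype. Replicate libraries differed by more than counting error (chi-square per degree of freedom 2.25 to 14.7 in 12 pairs). RefSeq entries on TAIR10.1, whose models may differ from those used for counting, were found for 32835 of the 33602 identifiers and all 7 members.

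Alternatives were upper-quartile factors, DESeq2 1.42.0, fits of only the 2 genotypes compared, no filter, at least 10 counts in every library, limma 3.58.1 on log2 TPM with a pseudocount of 1 or 0.1, the replicate number as a block, a threshold of 0.05, and each library left out in turn. The members and lists were chosen with earlier results of these data known. Named outside the 7 members were genes called with at least 1 CPM in the higher genotype, at most 3 per list, comparison and direction, the largest change first, with the mutated genes as a check, the uncalled *COI1*, *TPL*, *MED25* and *PUB10*, which were named after their values were seen, and the 3 genes nearest to each member by r. Also named, outside this rule, were *SCR*, *RBCS1A*, *CAB1*, *RCA*, *SPCH*, *TMM*, *RGA*, *RGL2*, *MYB21*, *MYB24* and the neighbours AT1G32630 and AT4G16440. The same holds for uncalled values of *JAZ2*, *JAZ6*, *JAZ7*, *JAZ8*, *JAZ11*, *JAZ12*, *JAV1*, *TPS11*, *EBF1*, *SPA1* and *ANAC055* in single mutants. The tests were tried on simulated data. Protein sequences were not used here.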

Additional observations from a re-analysis of the deposited data

Results flagged for a closer look

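The effect of the *jazQ* mutations on *MYC4* differed between the 2 *PHYB* backgrounds by a test of the difference itself, with an interaction of 0.54 on the log2 scale (adjusted p = 0.00736 in edgeR). This call was lost in 10 of the 12 fits without 1 library and under other settings given below. *NINJA*, the adaptor between JAZ proteins and TOPLESS, also differed, in the opposite direction, with an interaction of -0.38 (adjusted p = 0.00647 in edgeR). The *NINJA* value was not followed through the other settings or the fits without 1 library, so how firm it is was not tested. Groups of 3 libraries are too small for a search for single outlying samples.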

How the results depend on the processing

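The number of the 6 tested genes called in *jazQ* against WT and in *jazQ phyB* against WT was 0 under all alternatives. In *phyB* against WT it fell from 2 to 1 (*MYC4* lost) with limma on log2(TPM + 1) and on log2(TPM + 0.1), and ranged from 1 to 2 without 1 library. In *jazQ phyB* against *jazQ* it rose from 0 to 1 with DESeq2 and with calls at an adjusted p below 0.05, and ranged from 0 to 1 without 1 library. In *jazQ phyB* against *phyB* it ranged from 0 to 3 without 1 library and was 2 with limma on both TPM scales (*MYC2* lost) and 3 otherwise. The interaction fell from 1 to 0 with limma on both TPM scales, and ranged from 0 to 1 without 1 library. The replicate block also took it from 1 to 0 (*MYC4* adjusted p = 0.0123) and changed no other call of the 6 genes. Over the 4 genotypes, same-numbered libraries did not deviate together (r from -0.17 to 0.26 in 18 pairs, above 0.1 in 3, and 7 of 18 best with their own number), so the numbers were not read as pairs. The 3 pairs of *jazQ* with *jazQ phyB* were each best with their own number (r = 0.057, 0.177 and 0.262), a hint from the data only, and the block called 0 of the 6 genes in that comparison as before.

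Of 750 recomputed values of single genes, 716 kept their side of the threshold, 31 lost a call, 3 gained one and 0 changed sign in a call, while 27 uncalled values changed sign. TPM is not scaled between libraries, and in *phyB* against WT the median gene was at 0.14 on log2(TPM + 1), so that *MYC4* was at -0.23 or, relative to that median, -0.37. On that scale 78.4% of all calls were higher, against 40.0% with TMM (in *jazQ phyB* against WT 72.5 against 38.4%, and against *jazQ* 74.5 against 38.8%). The total called in *jazQ* against WT was 323 genes, 610 with DESeq2 and 108 with only the 2 genotypes in the fit.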
